A study of Homo sapiens with 6 samples.

Results

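MAP2 and 9 other genes of microtubule-associated proteins (MAP1A, MAP1B, MAP1S, MAP4, MAP6, MAP7, MAP7D1, MAPT and STMN1) were examined in RNA sequencing data from the SiHa cell line. They are 10 of the 48162 genes in the count table, and all 10 were among the 15860 genes that passed the filter on low counts and were tested. MAP2 was selected on the comparison described here, in which it had the 2nd strongest statistic of all genes, so its values are a description and carry no test. The other 9 genes were listed by their family names and not by their values, although earlier results of the same data were known when the list was made.

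SiHa is a cell line from a human cervical squamous cell carcinoma. Cells were transfected either with si-CNN3#1, a small interfering RNA against the mRNA of calponin 3 (CNN3, an actin-binding protein), or with the control duplex si-NC. Each group held 3 samples, whose RNA was taken at 48 h after transfection. By the labels, the medium of both groups was changed at 24 h. The comparison asks which transcripts differ once CNN3 is reduced. A single line, a single CNN3 duplex and a single time were measured, and cells that were not transfected were not analysed here. Bulk RNA was sequenced, so a change in the share of cells that carry a transcript and a change in its amount per cell cannot be told apart.

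Microtubules are hollow polymers of α- and β-tubulin dimers. Structural microtubule-associated proteins bind along the polymer lattice and stabilise, bundle or space microtubules, or govern which motors walk on them, whereas stathmins bind free tubulin dimers and promote disassembly. MAP2 is best known from the dendrites of neurons and MAPT, or tau, from their axons, while MAP4 is the member of the same repeat family that most other cells use.

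Total counts ran from 18147028 to 19026341 per sample with si-CNN3#1 and from 20287139 to 24976517 with si-NC, so each control sample was the deeper one. The targeted gene behaved as labelled: the si-CNN3#1 samples held 490, 514 and 574 counts of CNN3 and the si-NC samples 1134, 1288 and 1234. Its level was 28.1 ± 2.95 against 55.2 ± 2.97 CPM (counts per 1000000 counted reads, scaled by edgeR's TMM factors, mean ± SD, n = 3 per group), or 50.9% of control (log2 fold change −0.97, SE 0.06). Across all tested genes, 2111 (13.3%) passed an adjusted p of 0.05 (Benjamini-Hochberg) in the quasi-likelihood test of edgeR. The called genes comprised 978 higher and 1133 lower after knockdown, a split that became 1294 higher and 863 lower when samples were scaled by total counts alone. The median log2 fold change of all tested genes was 0.00.

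MAP2 and MAP1B were the members with clearly more transcript after CNN3 knockdown, MAP7 was modestly higher, and STMN1 was lower. Transcripts of MAP4, the most abundant lattice-binding member, and of MAP1S, MAP7D1, MAP1A, MAP6 and MAPT did not pass the test in either direction. Of the 9 members other than MAP2, 2 rose (MAP1B and MAP7), 1 fell (STMN1) and 6 did not pass. Among all tested genes 6.17% were called higher and 7.14% lower. The median log2 fold change of the 9 genes was −0.03, and the median of its absolute value was 0.11 beside 0.09 over all tested genes. In 4 of the 9, no si-CNN3#1 sample fell within the si-NC range (MAP1B and MAP7 above, MAPT and STMN1 below), whereas 28.2% of all tested genes had groups that did not overlap.

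**Figure D1:**
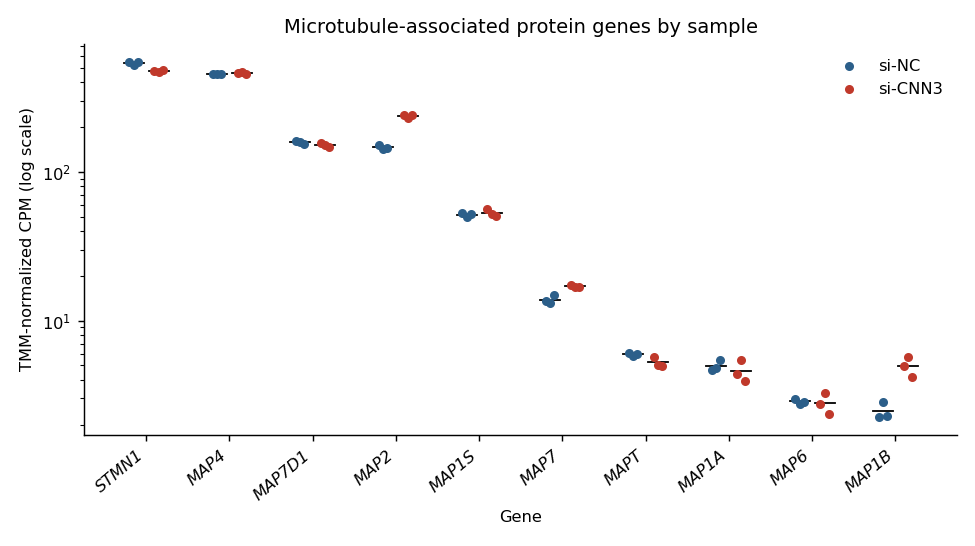
TMM-normalized CPM (log scale) of the 10 member genes in each of the 3 si-NC (blue) and 3 si-CNN3#1 (red) samples, with a bar at each group mean, ordered by the si-NC level. MAP2 and MAP1B stand above their controls in all 3 si-CNN3#1 samples and STMN1 stands below, while the points of MAP4, MAP1S, MAP1A, MAP6 and MAP7D1 overlap.

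MAP2 (ENSG00000078018, chr2:209424058-209734118, plus strand, GRCh38) encodes a protein that cross-links microtubules and anchors protein kinase A to them. Its counts were 4578, 4451 and 4421 with si-CNN3#1 and 3035, 3561 and 3123 with si-NC. Scaled to depth, these were 243, 232 and 242 CPM against 151, 143 and 145 CPM. Every si-CNN3#1 sample lay well above every control sample, although each was sequenced less deeply. The group levels were 239 ± 6.18 and 146 ± 4.33 CPM (SD, n = 3 each), which is 163% of control or a log2 fold change of 0.71 (SE 0.03, 95% interval 0.65 to 0.77). The spread within a group was small, with a coefficient of variation of 2.59% with si-CNN3#1 and 2.96% with si-NC. By the size of the rise MAP2 stood 187th of the 15860 tested genes, against 2nd by the test statistic, which also takes the counts and the spread into account. The fold change lay between 0.69 and 0.73 in all alternative count fits. These fits used the same samples on which MAP2 was chosen, so neither they nor the interval take account of that choice.

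The 5 genes whose profile over the 6 samples was nearest to that of MAP2 were CYP1A1, RELB, INHBA, BDNF and TNFAIP3, out of 14111 genes with a mean of at least 1 CPM. Likeness was the root mean square difference of log2(CPM + 0.5), each gene centred on its own si-NC mean. The added 0.5 CPM shrinks the change of a scarce gene on this scale. CYP1A1, a cytochrome P450 of xenobiotic metabolism, was nearest at 0.0535, with 13.5 ± 0.338 CPM against 7.78 ± 0.347 CPM. RELB, an NF-κB subunit, followed at 0.0550 (17.3 ± 0.189 against 10.0 ± 0.215 CPM). INHBA, a subunit of activin A, was at 0.0677, with only 1.51 ± 0.162 against 0.755 ± 0.0809 CPM and a fitted log2 fold change of 1.00 (SE 0.27), larger than that of MAP2. BDNF, a neurotrophin, was at 0.0688 (5.06 ± 0.265 against 2.89 ± 0.187 CPM). TNFAIP3, an NF-κB inhibitor, had a distance of 0.0709 and the highest level of the 5, at 46.1 ± 1.62 against 30.0 ± 0.377 CPM. These genes were picked by the same samples that selected MAP2, so no test is given.

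The large MAP1 proteins are made as precursors and cleaved into heavy and light chains. MAP1B (ENSG00000131711, chr5:72107234-72209570, plus strand), the form of growing axons, had 94, 110 and 76 counts after knockdown and 45, 71 and 49 in control samples. In CPM these were 4.99, 5.73 and 4.16 against 2.24, 2.85 and 2.27, so the lowest si-CNN3#1 sample was above the highest control. MAP1B rose to 200% of control (4.96 ± 0.783 against 2.46 ± 0.344 CPM), a log2 fold change of 1.00 (SE 0.16, 95% interval 0.69 to 1.32, edgeR adjusted p = 2.10e-06). It was the largest rise of the members and the 57th largest of all tested genes, but it rests on at most 110 counts per sample. When each sample was left out in turn the log2 fold change ran from 0.88 to 1.14, and MAP1B kept its call in every alternative count fit. On the deposited FPKM values, tested with limma on log2(FPKM + 0.1), MAP1B passed at an adjusted p of 0.0311, and lost the call when any sample other than si-CNN3#1 replicate 3 was left out (adjusted p 0.0577 to 0.103).

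MAP1A and MAP1S did not pass the test. MAP1A (ENSG00000166963, chr15:43510958-43531620, plus strand), the form of mature neurons, had 83, 104 and 72 counts after knockdown and 93, 119 and 117 in control samples, and the groups overlapped in CPM. Its log2 fold change was −0.11 (SE 0.13, 95% interval −0.37 to 0.16, edgeR adjusted p = 0.697), an interval that holds falls as large as the rise of MAP7. MAP1S (ENSG00000130479, chr19:17719242-17734516, plus strand), the short and broadly expressed form, had 52.8 ± 2.80 CPM with si-CNN3#1 and 51.7 ± 1.82 CPM with si-NC. With 924 to 1237 counts per sample its interval was narrower, from −0.06 to 0.13 around 0.03 (edgeR adjusted p = 0.719). Of the 3 genes of the MAP1 family, only MAP1B was called. Differences of fold change between members were not tested.

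MAP4 (ENSG00000047849, chr3:47850690-48089272, minus strand) had 8756, 9019 and 8319 counts after knockdown and 9170, 11355 and 9829 in control samples. Scaled to depth these were 464, 470 and 456 CPM against 457, 456 and 456 CPM, and the groups overlapped. Its log2 fold change was 0.02 (SE 0.03, 95% interval −0.03 to 0.07, edgeR adjusted p = 0.654), so a change of MAP2's size lay far outside the interval. MAPT (ENSG00000186868, chr17:45894382-46028334, plus strand) was scarce, with 108, 96 and 91 counts against 121, 145 and 129. Its 3 si-CNN3#1 samples, at 5.73, 5.00 and 4.98 CPM, were all below the 3 controls, at 6.03, 5.83 and 5.98 CPM. The log2 fold change of −0.18 did not pass the test (SE 0.12, 95% interval −0.42 to 0.06, edgeR adjusted p = 0.375).

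MAP2, MAP4 and MAPT share the tubulin-binding repeats. The deposited FPKM divides by a length per gene and so sets their transcripts beside each other, though the shares depend on that length. MAP2 made up 42.1%, 40.8% and 42.5% of the summed FPKM of the 3 genes with si-CNN3#1 and 31.5%, 30.4% and 30.7% with si-NC. This was 41.8% ± 0.937 against 30.9% ± 0.598 (SD, n = 3 each), a difference of 11.0 percentage points. MAP4 accounted for most of the rest, at 57.6% against 68.4%, and MAPT for 0.552% against 0.755%. Per kilobase of longest transcript, the MAP2 share was 31.8% with si-CNN3#1 and 22.5% with si-NC. The summed FPKM of the 3 genes was 275 ± 0.707 with si-CNN3#1 and 226 ± 1.55 with si-NC. The larger sum and the larger MAP2 share both contain MAP2, which was chosen for its rise, so they describe the size of that rise within the family and are not further evidence of it.

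**Figure D2:**
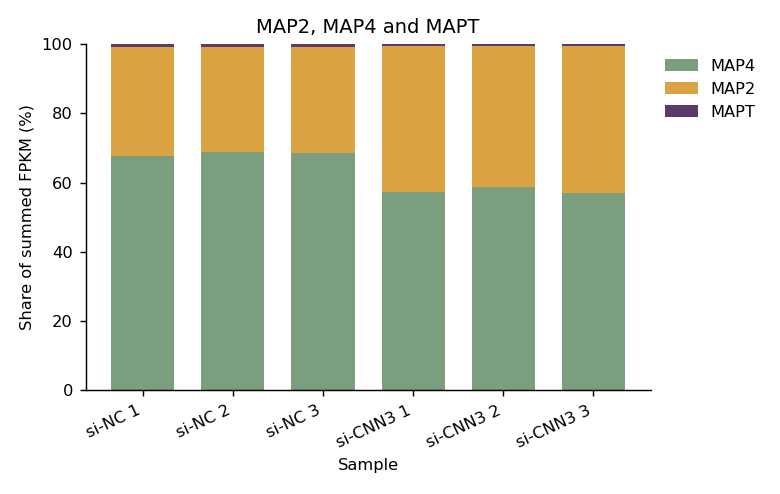
Share (%) of MAP4 (green), MAP2 (yellow) and MAPT (purple) in the summed FPKM of these 3 genes, 1 bar per sample. MAP2 takes 30.4% to 31.5% in the si-NC samples and 40.8% to 42.5% in the si-CNN3#1 samples, and MAPT is a thin strip throughout.

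MAP7 (ENSG00000135525, chr6:136342281-136550819, minus strand), which recruits the motor kinesin-1 to microtubules, had 327, 323 and 306 counts after knockdown and 272, 326 and 323 in control samples. The raw counts overlapped, but in CPM the si-CNN3#1 samples (17.3, 16.8 and 16.8 CPM) were all above the controls (13.6, 13.1 and 14.97 CPM). MAP7 rose to 123% of control (16.97 ± 0.321 against 13.9 ± 0.978 CPM; log2 fold change 0.29, SE 0.07, edgeR adjusted p = 0.00396). The call was lost with DESeq2 (log2 fold change 0.29, adjusted p = 0.0690) and was not made by limma on log2(FPKM + 0.1) (adjusted p = 0.0760). Its relative MAP7D1 (ENSG00000116871, chr1:36155579-36180849, plus strand) was much more abundant, with 2691 to 3989 counts per sample. MAP7D1 had 152 ± 4.75 against 158 ± 4.27 CPM, a log2 fold change of −0.05 with overlapping groups (SE 0.03, edgeR adjusted p = 0.276). The library kit does not mark strand, and MAP7D1 overlaps TRAPPC3 on the other strand. TRAPPC3 had 1276 to 1689 counts and a log2 fold change of 0.02 (edgeR adjusted p = 0.805), so reads from the shared stretch cannot be assigned to either.

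MAP6 (ENSG00000171533, chr11:75586918-75669120, minus strand), which makes microtubules resistant to cold, had 52, 63 and 43 counts after knockdown and 60, 69 and 61 in control samples. The groups overlapped at 2.80 ± 0.464 and 2.86 ± 0.113 CPM. Its log2 fold change was −0.03 with the widest interval of the members, −0.37 to 0.32 (SE 0.17, edgeR adjusted p = 0.947). At this depth a change of MAP7's size could not have been told from none for MAP6, and a change of MAP1B's size lay outside the interval.

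STMN1 (ENSG00000117632, chr1:25884181-25906991, minus strand) encodes stathmin, or oncoprotein 18, and is the member that binds tubulin dimers in place of the lattice. Its counts were 9066, 9007 and 8789 with si-CNN3#1 and 10950, 13127 and 11887 with si-NC. These were 481, 469 and 481 CPM against 546, 527 and 551 CPM, with a clear gap between the groups. STMN1 fell by 0.18 on the log2 scale (SE 0.03, edgeR adjusted p = 2.00e-07), to 88.1% of control, or 477 ± 6.98 against 541 ± 12.4 CPM. The fall was small but was called in each alternative count fit, and leaving out each sample in turn gave −0.20 to −0.17. Its processed copy STMN1P2 had 0 counts in all samples. Set against the summed FPKM of the 9 lattice-binding members, STMN1 FPKM made a ratio of 0.804 ± 0.0178 with si-CNN3#1 and 1.02 ± 0.0247 with si-NC. Part of this difference is the rise of MAP2 itself, since the summed FPKM was 446 ± 6.58 against 396 ± 4.202. MAP2 alone had 115 against 69.6 FPKM. The ratio also depended on the length used. It was 1.14 against 1.39 per kilobase of longest transcript, and 0.796 against 0.989 per kilobase of exon union.

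**Figure D3:**
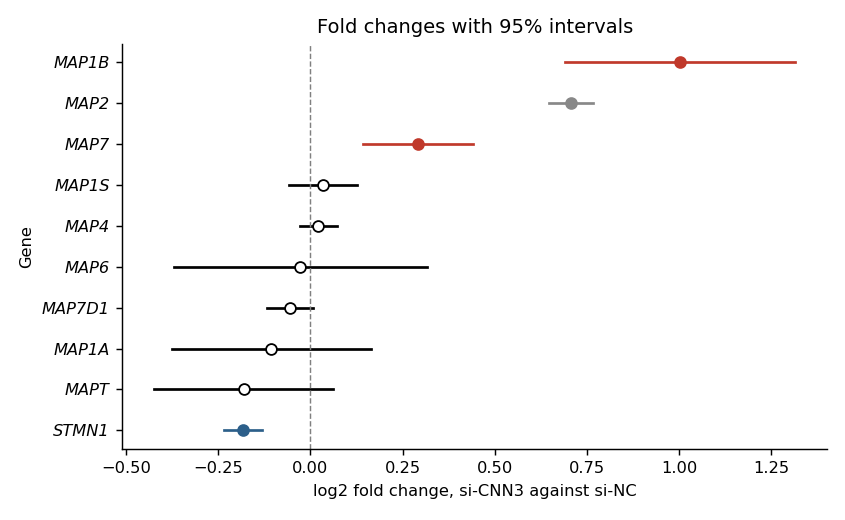
Log2 fold change of si-CNN3#1 against si-NC for the 10 members, with 95% intervals from the edgeR fit over 6 samples. Red and blue filled points passed an adjusted p of 0.05 above and below 0, open points did not, and MAP2, which was chosen on this comparison, is in grey; the intervals of MAP6, MAP1A and MAPT are wide and those of MAP4, MAP7D1 and STMN1 narrow.

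The members differed far more from each other than between conditions. In deposited FPKM (counts per kilobase of gene length and 1000000 counted reads), the order in si-NC was STMN1 at 403, MAP4 at 154, MAP7D1 at 107, MAP2 at 69.6 and MAP1S at 56.7. MAP7 followed at 4.55, then MAPT at 1.71, MAP6 at 1.16, MAP1B at 0.751 and MAP1A at 0.474. No neighbours in this order had overlapping ranges in si-NC. STMN1 stood at 850 times the level of MAP1A, and the members spanned the 98.6th to the 5.10th percentile of tested genes. With si-CNN3#1, MAP2 passed MAP7D1 (115 ± 2.53 against 104 ± 2.86 FPKM), and MAP1B moved above MAP6 and MAPT, at 1.53 ± 0.245 FPKM against 1.15 ± 0.194 and 1.52 ± 0.115, with ranges that overlapped those of both.

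Part of the order depended on which length a gene was given. The length behind the FPKM equalled the mean length of a gene's annotated transcripts within 5% for 73.0% of 29078 genes, short and partial transcripts included. For MAP2 it was 2086 bases, beside 11559 bases for the union of its exons and 9711 for its longest transcript. For MAP1B it was 3246 against 12630 bases of exons, for MAP1S 905 against 5040, and for MAP1A, which has few annotated transcripts, 10364 against 10629. Per kilobase of exon union, STMN1 remained highest in si-NC at 85.8, followed by MAP4 at 30.3 and MAP7D1 at 29.7, which overlapped. MAP2 came to 12.6 in si-NC and 20.8 with si-CNN3#1, and so stayed below MAP7D1 in both groups. MAP1A at 0.462 stood above MAPT at 0.396, with MAP6 at 0.442 between them and overlapping MAP1A, and MAP1B at 0.193 was last. Per kilobase of longest transcript, the si-NC ranges of MAP1S (14.5 to 15.4) and MAP2 (14.7 to 15.4) overlapped, and MAP2 was 24.7 with si-CNN3#1. Fold changes of a gene between conditions do not depend on its length.

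**Figure D4:**
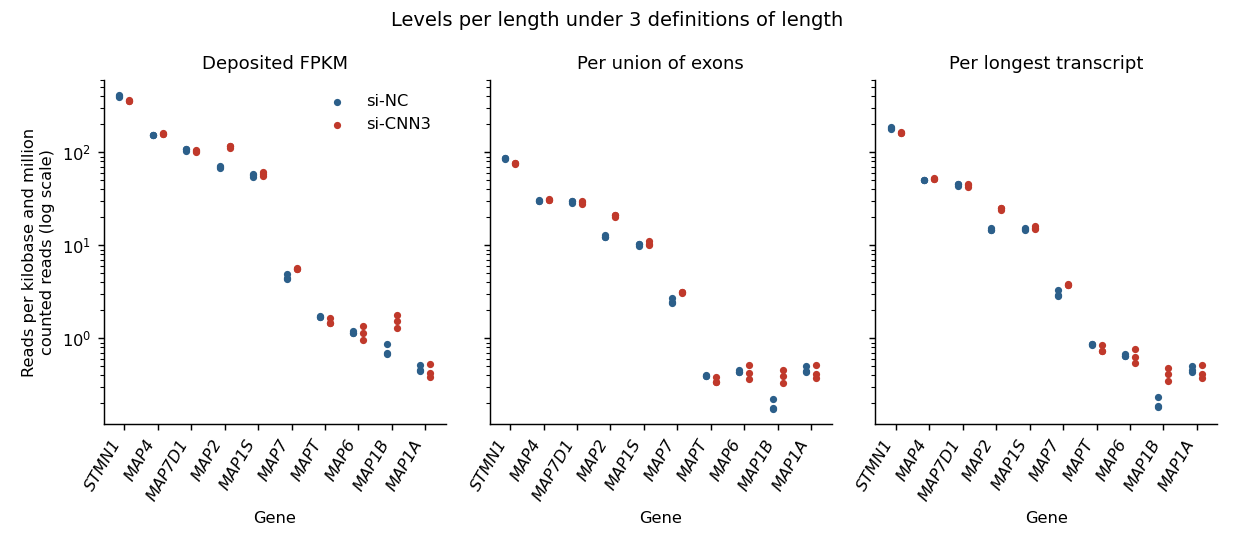
Level of each member in the 3 si-NC (blue) and 3 si-CNN3#1 (red) samples, in counts per kilobase and 1000000 counted reads (log scale), with the length behind the deposited FPKM, the union of exons and the longest transcript. STMN1 is highest in each panel, while MAP2 with si-CNN3#1 stands above MAP7D1 at 115 FPKM in the first panel and below it at 20.8 per kilobase of exon union in the second.

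Of the 20 nearest tested genes, 1 on either side of each member, 2 were called, where 13.3% of all tested genes were. These were PIKFYVE beside MAP2 and SERPINH1 beside MAP6, and both were lower. MAP2 lies in a wide interval, 1065307 bases from PIKFYVE, a lipid kinase, and 268447 bases from RPE, an enzyme of the pentose phosphate pathway. PIKFYVE fell by 0.20 (log2, SE 0.04, edgeR adjusted p = 0.000153) and RPE was not called (log2 fold change −0.07, edgeR adjusted p = 0.232). MRPS27, 9839 bases from MAP1B, had a log2 fold change of −0.02 (edgeR adjusted p = 0.826), and MCCC2, on its other side, −0.08 (edgeR adjusted p = 0.0702). Beside MAP7, BCLAF1 and MAP3K5 were at 0.01 and 0.05. Beside STMN1, PAQR7 was at −0.06 and PAFAH2 at −0.13, and neither passed. SERPINH1, a collagen chaperone next to MAP6, fell by 0.21 (edgeR adjusted p = 8.03e-09) while MAP6 was not called, and DGAT2, on the other side of MAP6, was at −0.07 (edgeR adjusted p = 0.647). The neighbours of MAP1A, MAP1S, MAP4, MAP7D1 and MAPT did not pass the test.

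The 300 bases around an annotated transcription start (250 before to 50 after) are shown for MAP2, MAP1B and STMN1, the members with the largest or firmest differences, from RefSeq on GRCh38.p14. Capitals mark the GC box GGGCGG and the E-box CANNTG, each read on both strands. RefSeq windows were matched for 8 of the 10 members, 18 windows in all. The MAP2 windows all lie inside the gene, past its annotated first base at chr2:209424058, and the window shown overlaps another. Which start SiHa cells use was not measured.
MAP2 start, chr2:209579357-209579656, plus strand: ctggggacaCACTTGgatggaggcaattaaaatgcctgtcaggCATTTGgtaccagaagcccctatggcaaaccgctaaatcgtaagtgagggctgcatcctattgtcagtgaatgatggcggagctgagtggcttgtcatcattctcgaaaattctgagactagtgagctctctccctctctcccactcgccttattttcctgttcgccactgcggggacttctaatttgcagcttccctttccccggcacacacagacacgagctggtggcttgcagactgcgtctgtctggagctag
MAP1B start, chr5:72107225-72107524, plus strand: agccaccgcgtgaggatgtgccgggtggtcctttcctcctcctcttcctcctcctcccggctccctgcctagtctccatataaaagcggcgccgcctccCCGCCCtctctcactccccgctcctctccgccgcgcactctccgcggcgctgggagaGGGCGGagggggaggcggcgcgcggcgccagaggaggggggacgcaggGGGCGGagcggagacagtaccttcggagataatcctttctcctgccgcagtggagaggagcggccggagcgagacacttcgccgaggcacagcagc
STMN1 start, chr1:25906370-25906669, minus strand: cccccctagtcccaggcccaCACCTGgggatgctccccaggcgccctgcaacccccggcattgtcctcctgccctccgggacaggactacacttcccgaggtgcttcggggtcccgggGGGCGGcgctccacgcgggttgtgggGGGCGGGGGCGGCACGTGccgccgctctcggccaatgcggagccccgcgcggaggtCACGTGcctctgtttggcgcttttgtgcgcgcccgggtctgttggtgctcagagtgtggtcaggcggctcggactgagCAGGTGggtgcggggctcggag

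The MAP2 windows had few CpG dinucleotides, with 5, 7 and 10 in its 3 windows against a median of 14 over 35116 windows of all genes. Low values were not particular to MAP2: the other MAP1B window had 12, the second MAP1A window 10, the second MAP4 window 1, and 3 of the 4 MAP7 windows 3, 5 and 4. The MAP1B window shown had 31, the STMN1 window shown 29 and the MAP7D1 window 46. A GC box was found in 10 of the 18 windows and in 7 of the 8 members, MAP2 being the exception, and in 45.0% of all windows. An E-box was found in 12 of the 18 windows and 7 of the 8 members, MAP2 among them and MAP7D1 not, and in 68.7% of all windows. The cAMP response element TGACGTCA was in 0 of the 18 windows (1.85% of all), and the TEAD motif GGAATG and the TATA box TATAAA were in MAP1B windows alone (14.03% and 11.5% of all). MAP2, MAP1B and MAP7, which were higher, each had an E-box in at least 1 window, as most windows of all genes did.

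An siRNA can also act through its seed, bases 2 to 8 of the guide strand, on 3′ untranslated regions with the matching 7 bases. The sense strands are shown as in the labels, with their overhang in capitals, and the guide strands as their complements, with the seed in capitals.
si-CNN3#1 sense: gcagaugggaaccaacaaaTT
si-CNN3#1 guide: uUUGUUGGuucccaucugc
si-NC sense: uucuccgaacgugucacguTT
si-NC guide: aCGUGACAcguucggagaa

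The 19 bases of the si-CNN3#1 sense strand were found whole only in transcripts of CNN3, and in none of the members. Its seed site CCAACAA was in the longest 3′ untranslated region of 2 of the 10 members and of 9.14% of 12644 genes. Both sites are shown with 9 bases on each side and the site in capitals.
MAP1B, chr5:72205739-72205745, plus strand: gaaaataaaCCAACAAttaggtctg
MAP6, chr11:75605733-75605739, minus strand: ttttttaaaCCAACAAaccaaaaaa

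The site in MAP1B begins at base 500 of 4331 and that in MAP6 at base 65 of 2944. MAP1B rose and MAP6 was not called (95% interval −0.37 to 0.32, as above). The si-NC seed site TGTCACG was in none of the 10 members and in 3.08% of the genes. A part of seed matches in these differences was not tested.

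The other genes of the microtubule system were taken from 7 lists, 112 tested genes in all without the members. Of these, 25 passed the test (22.3%, beside 13.3% of all tested genes), 5 higher and 20 lower, with a median log2 fold change of −0.01 against 0.00 for all genes. None of the 25 changed by more than 0.5 on the log2 scale. With samples scaled by total counts the split was 9 higher and 9 lower, so the balance of directions among these small differences depended on the scaling. Of the 20 genes named below, 7 (CLIP1, MAPRE1, NDE1, PPP3CA, TTL, TUBA1C and TUBB6) were called in every alternative count fit. The other 13 lost their call in at least 1 fit, and leaving out any of the 6 samples removed the call of at least 1 of them.

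Among 20 other lattice-binding proteins, 1 rose and 3 fell. DCLK2, a doublecortin-like kinase, rose by 0.30 (log2, SE 0.08, edgeR adjusted p = 0.00851; 13.5 against 10.9 CPM). EML1 fell by 0.25, and the spindle proteins TPX2 and NUMA1 fell by 0.09 each. Of the 20, DESeq2 called 0 higher and 1 lower (TPX2), and limma on FPKM called 0 in either direction. Among the other stathmins only STMN3 could be tested, and it fell by 0.13 with groups that overlapped (edgeR adjusted p = 0.0427). Of the 16 tubulins, 3 fell (18.75% called), namely TUBA1C and TUBB6 by 0.12 each (edgeR adjusted p = 0.00237 and 0.00180) and TUBB4B by 0.08. None rose in edgeR, where 0 were higher at an unadjusted p under 0.05, or in DESeq2 (0) or limma (0). The falls of the 3 were also called by DESeq2, whereas limma on FPKM called 0 tubulins lower. The summed FPKM of the tubulin list was 1669 to 1710 with si-CNN3#1 and 1705 to 1769 with si-NC. The other 13 tubulins were not called, and the list's median log2 fold change was 0.03.

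Proteins of microtubule ends and their partners numbered 25, of which 2 rose and 5 fell. CLIP1 (CLIP-170), which tracks growing ends, rose by 0.18 (SE 0.03, edgeR adjusted p = 1.77e-06), and its partner MAPRE1 (EB1) rose by 0.11 (SE 0.03, edgeR adjusted p = 0.00129). NDE1, a dynein regulator, fell by 0.20 (SE 0.05, edgeR adjusted p = 0.00427). The depolymerising kinesin KIF2C and the dynactin subunit DCTN1 fell by 0.11 each. Of the 25, DESeq2 called 2 higher and 2 lower, and limma on FPKM called 2 higher and 0 lower. Of 24 enzymes that modify tubulin or sever microtubules, 2 fell (8.33%), near the 7.14% of all tested genes called lower. They were TTLL7, by 0.30 (edgeR adjusted p = 0.0218), and the tubulin-tyrosine ligase TTL, by 0.17 (SE 0.04, edgeR adjusted p = 0.000636). None rose in edgeR, with 1 at an unadjusted p under 0.05, 0 in DESeq2 and 1 in limma. Called lower were 1 in DESeq2 (TTL) and 0 in limma.

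Among 21 kinases and phosphatases that act on microtubule-associated proteins, 1 rose and 6 fell (33.3% called, beside 13.3% of all tested genes). DESeq2 called 0 higher and 2 lower, and limma on FPKM called 1 higher and 1 lower. PPP3CA, a catalytic subunit of calcineurin, was the largest called difference of the 7 lists, falling from 122 ± 1.28 to 89.6 ± 3.24 CPM (log2 fold change −0.45, SE 0.03, edgeR adjusted p = 1.90e-15). PPP3CB, the other widely expressed catalytic subunit, fell by 0.15 (edgeR adjusted p = 0.0258). PRKACB, a catalytic subunit of the protein kinase A that MAP2 anchors, fell by 0.18 (edgeR adjusted p = 0.0202), and PPP2CA, of protein phosphatase 2A, rose by 0.10 (edgeR adjusted p = 0.0242). Of 5 tubulin folding cofactors, TBCA rose by 0.12 with overlapping groups (edgeR adjusted p = 0.0115). DESeq2 did not call this rise (adjusted p = 0.0815), and limma on FPKM called 0 of the list higher. The edgeR call was also lost without si-CNN3#1 replicate 1 or si-NC replicate 2 or 3. None of the 5 fell in edgeR, in DESeq2 (0) or at an unadjusted p under 0.05 (0).

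**Figure D5:**
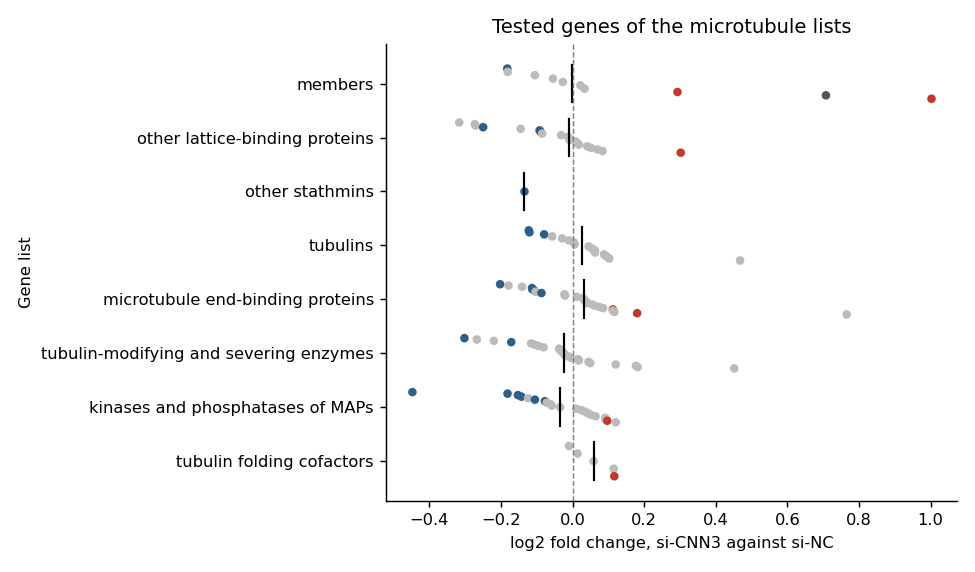
Log2 fold change of si-CNN3#1 against si-NC for each tested gene of the members and the 7 microtubule lists, with a black bar at each list's median. Red and blue points passed an adjusted p of 0.05 above and below 0, light grey points did not, and MAP2 is in dark grey. The called genes of the 7 lists lie between −0.45 and 0.30. Their upper end is below MAP1B at 1.00, and their lower end is below STMN1, the lowest member, at −0.18.

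Because MAP2, MAPT and MAP1B are widely used as neuronal markers, markers of neurons were read in the same samples. Of 16 neuron markers in the files, ELAVL4, NEFM and STMN2 had 0 counts in all 6 samples, and 8 could be tested. None of the 8 was called in edgeR, DESeq2 (0) or limma (0), and 2 were higher at an unadjusted p under 0.05. Their summed FPKM was 221 to 227 with si-CNN3#1 and 218 to 227 with si-NC, most of it from the neurofilament NEFH (554 ± 21.3 against 571 ± 20.4 CPM). The median log2 fold change of the 8 was 0.10, and INA (log2 fold change 0.09, edgeR adjusted p = 0.0543) and UCHL1 (0.31, edgeR adjusted p = 0.161) lay above all controls without passing the test. Over all tested genes, 28.2% had groups that did not overlap. All 7 genes of the epithelial list were detected, but KRT19 (4.88 against 5.04 CPM) and EPCAM (6.65 against 6.25 CPM) were scarce. CDKN2A, also on this list, was at 277 ± 9.18 and 271 ± 5.11 CPM. Of the 7, the keratins KRT8 and KRT18 fell by 0.19 and 0.18 and 5 did not pass, among them KRT7 at a log2 fold change of 0.06 (edgeR adjusted p = 0.0832). KRT7 was the most abundant of the list in FPKM, while in CPM KRT8 was (608 against 498 for KRT7 in si-NC). The list's median was 0.03, and its summed FPKM was 1792 to 1826 against 1814 to 1835. Of 7 tested fibroblast and blood cell markers, CD14 fell by 0.30 (edgeR adjusted p = 7.88e-10) and the other 6 did not pass. The list's summed FPKM, 118 to 124 against 138 to 149, was almost wholly CD14 itself. The part of KRT8, KRT18 and CD14 in the differences of the members was not tested.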

How the data were processed

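RNA from 6 samples of SiHa cells, 3 per group, was sequenced from TruSeq libraries that do not mark strand. The authors filtered the reads and aligned them with TopHat2 2.0.9 over Bowtie2 2.0.6, per the submitters' processing notes, which also name HTSeq and DESeq 1.10.1. The authors deposited whole-number counts per Ensembl gene, not normalized, and FPKM values computed from them. The counting rule for reads with several matches, the genome build and the annotation are not given in the sources used here. Gene names and coordinates were therefore taken from GENCODE 29 on GRCh38 by Ensembl identifier, which named 45342 of the 48162 genes.

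Counts were tested with edgeR 4.0.16 in R 4.3.3 (TMM factors, filterByExpr with a minimum count of 10, quasi-likelihood test, condition as the only term). P-values were adjusted by Benjamini-Hochberg over all 15860 tested genes, with a threshold of 0.05, and the common biological coefficient of variation was 0.0232. The authors' FPKM were compared within genes with limma 3.58.1 on log2(FPKM + 0.1), for genes with a mean of at least 0.1, on which fold changes of low genes are understated. DESeq2 1.42.0, other scalings and filters, a replicate block, leaving out each sample and thinning to equal depth were the alternatives. The fits were checked on simulated counts with known changes.

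The members and the lists were chosen with earlier results of these data known. All members are named. From each list, the 3 largest rises and the 3 largest falls past the threshold with a mean of at least 1 CPM are named, and from the whole table the 5 profiles nearest to MAP2 and the nearest tested gene on each side of a member. Of the listed genes, 4 were not matched to the files. The labels do not say whether the samples came from separate cultures, while the study's text describes independent experiments, so p-values measure the spread between these samples. That spread was narrow (common biological coefficient of variation 0.0232), so small differences could pass the test.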

Additional observations from a re-analysis of the deposited data

How the results depend on the processing

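MAP1B and STMN1 kept direction and call in all count fits, including other size factors, other filters and thinning to equal depth, the last chosen after seeing the data. Leaving MAP2 out, members called higher went from 2 to 1 with DESeq2, where MAP7 was lost, and members called lower were 1 in every fit. Genes of the 7 other lists called higher went from 5 to 9 with total counts, 2 with DESeq2 and 8 with the replicate block, and were 3 to 6 when each sample was left out, with 3 without si-NC replicate 2 or 3. Those called lower went from 20 to 9 with total counts and 9 with DESeq2, and were 11 to 18 when each sample was left out, with 11 without si-CNN3#1 replicate 3 or si-NC replicate 1 or 2 and 13 without si-CNN3#1 replicate 1. With limma on FPKM, members called higher were 1 (MAP1B), 0 without a filter on low values, and 0 to 1 when each sample was left out. The cause of these shifts was not tested.

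The share of MAP2 among MAP2, MAP4 and MAPT was larger by 11.0 percentage points in FPKM, 9.73 in counts and 9.37 per longest transcript, a length chosen after seeing the data. Among members that were never called, the sign turned when a sample was left out for MAP1S (log2 fold change −0.011 without si-CNN3#1 replicate 1, up to 0.062), MAP6 (−0.16 to 0.079, above 0 without si-CNN3#1 replicate 3 and without si-NC replicate 1, at 0.0035) and, in limma, MAP1A (−0.19 to 0.0015) and MAP6 (−0.14 to 0.082, at 0.0015 without si-NC replicate 1). MAP6 was at 0.011 after thinning.

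Replicate numbers are shared between the groups. Same-numbered samples deviated together only weakly (r from 0.0105 to 0.0329, each the highest for its sample), while all other combinations had r of −0.0008 or lower. These values do not decide whether the numbers mark pairs. The main fit used condition alone, and the replicate block was run as an alternative. The replicate block raised the calls from 2111 to 2727 over all genes and changed no call of a member. DESeq2 called 1073 genes, no filter on low counts 1949, and leaving out each sample 1551 to 1747. Members with fewer than 150 counts per sample (MAP1A, MAP1B, MAP6 and MAPT) are limited by depth.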
